A study of Mus musculus with 5 samples.

Results

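A pair of single-cell RNA sequencing libraries was compared, from mouse epiblast stem cells (EpiSCs, a pluripotent cell type that is grown from the embryo after implantation) that were differentiated for 3 days either in the absence of FGF2 or at 0.75 ng/ml of it. Both cultures also received 1 µM of the Wnt agonist Chi and 8 ng/ml BMP4 in serum-free N2B27 medium, so that FGF2 was the only listed difference between them. The EpiSC line is wild type, on a 129 background, and came from an embryo at E6.5, so that all values describe 1 line. The remaining libraries of the series held cells treated with 3 or 12 ng/ml FGF2, or with 30 nM of the FGF receptor inhibitor AZD4547 (FGFRi), and their values are given only as context. Cells were selected as barcodes with at least 2500 detected genes and at most 10% mitochondrial UMIs, which kept 1696 of 2407 barcodes without FGF2 and 2725 of 3829 at 0.75 ng/ml. Together these were 4421 of the 10653 cells kept in the series.

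The comparison asks how the lowest FGF2 dose of the series changes the mixture of cells that Wnt and BMP signals produce. FGFs bind receptor tyrosine kinases and activate ERK, which induces the feedback genes of the Sprouty and Dusp families and the Etv transcription factors. In the gastrulating embryo, Fgf ligands are expressed in the primitive streak together with T (Brachyury), the T-box factor of nascent mesoderm, and FGF signaling is needed for cells to leave the streak and to form paraxial mesoderm. BMP signaling instead favors proximal fates, such as extraembryonic and lateral plate mesoderm marked by Hand1, and surface ectoderm rich in simple keratins.

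The kept cells held 56812075 UMIs without FGF2 and 81538748 at 0.75 ng/ml, with medians of 29661.5 and 27505 UMIs per cell and of 5382.5 and 5200 detected genes. Paired values are given in this order throughout, the library without FGF2 first. The median mitochondrial share was 4.13% and 3.96%. No barcode was found in both libraries. The level of a gene is given in CPM, the usual counts-per-million scale of its UMIs in the sum over all kept cells, and brackets hold 95% intervals that cover counting error only. Because there was 1 library per condition, how much cultures vary is not known and the conditions could not be tested against each other. Genes are therefore described by fixed rules of size. Among the 3040 genes that reached 50 CPM in 1 or both libraries, 46 differed by 2-fold or more, which is 1.51%. Of these, 5 genes (0.164%) were higher and 41 genes (1.35%) were lower at 0.75 ng/ml FGF2. A weaker rule, a difference of at least 1.5-fold at 10 CPM or more in 1 or both libraries, was used for gene lists. Counts of list members cover only those at this level, which some reached in 1 library alone. The weaker rule was met by 438 of 8130 genes (5.39%), of which 102 (1.25%) were higher and 336 (4.13%) lower. The median log2 ratio of all genes was 0.0061 at 50 CPM and 0.0028 at 10 CPM. Since each library was divided by its own total, these medians do not bear on the total RNA of the cells.

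The 5 genes past the 2-fold rule upwards included known genes of the primitive streak and its descendants. The level of T (GRCm38, 17:8434423-8442496, plus strand) was 26.7 and 92.7 CPM, a ratio of 3.47 (3.29 to 3.67). Fgf8, the main FGF ligand of the streak, was at 24.5 and 72.3 CPM, a ratio of 2.94 (2.78 to 3.12). Rspo3, a secreted enhancer of Wnt signaling that is expressed in presomitic mesoderm, was at 93.0 and 216 CPM, a ratio of 2.33 (2.26 to 2.40). The other 2 genes were Igfbp3, a secreted IGF-binding protein, with a ratio of 2.38 (2.24 to 2.54), and Grsf1, an RNA-binding protein of mitochondria, with a ratio of 2.15 (2.07 to 2.22).

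The genes past the 2-fold rule downwards were led by the cell-cycle inhibitor gene Cdkn2a, which was at 57.5 and 9.11 CPM and thus 6.31-fold lower (5.82 to 6.84). Smooth muscle actin Acta2 (19:34241090-34255590, minus strand) was at 141 and 23.0 CPM, 6.12-fold lower (5.82 to 6.44). Runx1, a transcription factor required for blood formation, was at 57.2 and 10.2 CPM, 5.62-fold lower (5.20 to 6.07). The actin-binding protein gene Tagln was at 478 and 105 CPM, 4.57-fold lower (4.46 to 4.68). These 4 genes stood apart from the other 37, which were between 2.01-fold and 3.62-fold lower. This gap holds only for genes with at least 50 CPM. Of the genes below that level, Cnn1, at 27.2 and 6.21 CPM, fell into it. Cdkn2b, at 42.3 and 6.13 CPM, was lower by a larger factor than Cdkn2a. Anxa3 and Bmp2 were nearest to the threshold, both 2.01-fold lower, with intervals from 1.92 to 2.09 and from 1.90 to 2.13 that include 2-fold. The same held for Sparc, Csrp2 and Nes, so that 36 of the 41 genes were past 2-fold with their whole interval. These intervals leave out the sampling of cells. With every cell given the same weight, 32 genes were at least 2-fold lower.

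**Figure D1:**
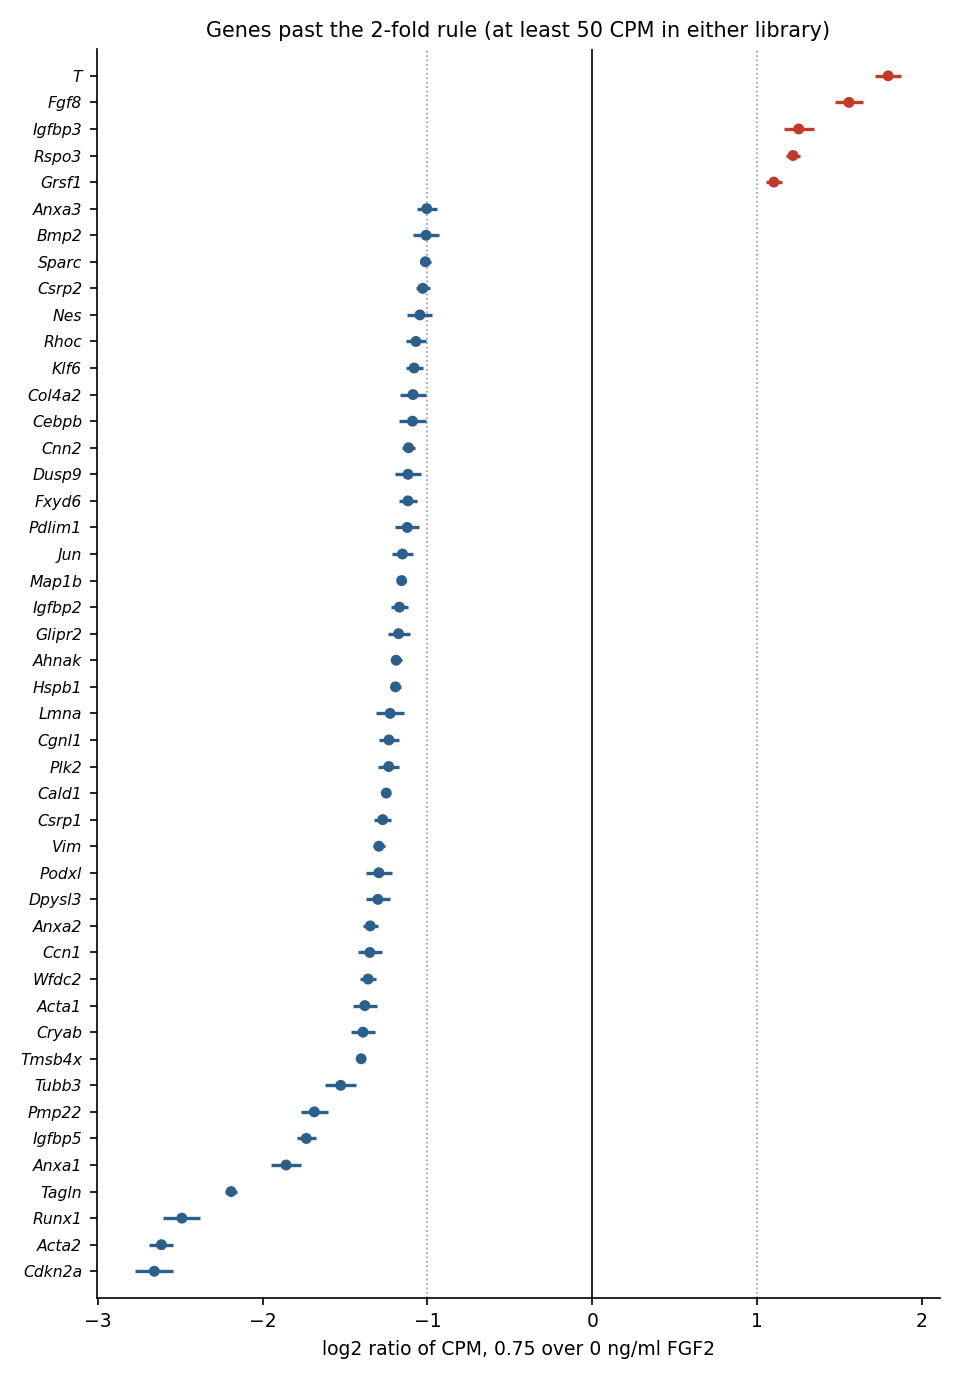
Log2 ratio of CPM, 0.75 over 0 ng/ml FGF2, for the 46 genes past the 2-fold rule, 1 gene per line and 1 library per condition. Points are ratios, bars 95% counting intervals, dotted lines 2-fold; T had the highest ratio (3.47) and Cdkn2a the lowest (6.31-fold lower), and 41 of the 46 genes lie on the lower side.

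To show regulatory sequence beside these levels, the 250 bases upstream of the RefSeq start of each gene (GRCm38.p6) were searched on both strands. Promoters were found for 33 of the 41 lower genes and for 3 of the 5 higher genes. The CArG box, the binding motif of serum response factor (SRF) that recurs at genes of the actin cytoskeleton, was present without mismatch in Acta1, Cnn2 and Glipr2. These were 3 of 33 lower genes (9.09%), against 43 of 2417 genes with at least 50 CPM (1.78%) and 1.47% of all 32851 promoters. Under the 1.5-fold rule the box was as frequent in higher as in lower genes, in 4 of 70 (5.71%) and 15 of 260 (5.77%), against 1.48% of genes with at least 10 CPM. In the Acta2 promoter a pair of CArG-like elements with 1 mismatch each was found. Such matches with at most 1 mismatch are common, in 24.2% of the lower genes and 17.2% of the genes with at least 50 CPM. The motif CTTTGA, bound by TCF/LEF factors of the Wnt pathway, was present in the T promoter. It was found in 11.9% of genes with at least 50 CPM and 1 of 33 lower genes. Under the 1.5-fold rule it was found in 17.1% of higher and 8.46% of lower genes, against 12.0% of genes with at least 10 CPM. The AP-1 motif TGANTCA was found in 3 of 33 lower genes (9.09%) and in 3.85% of genes with at least 50 CPM. Under the 1.5-fold rule it was found in 5.71% of higher and 9.23% of lower genes, against 4.53% of genes with at least 10 CPM. The ETS motif CCGGAA was found in 7 of 33 lower genes (21.2%) and in 31.3% of genes with at least 50 CPM. It was also found in 2 of the 3 higher genes, Grsf1 and Igfbp3, but in 5 of 70 genes (7.14%) higher by the 1.5-fold rule. The 30 bases around each CArG box, each CArG-like element of Acta2 and the CTTTGA match of T are shown, from the strand of the gene, with the match in capitals. The CTTTGA match lies on the opposite strand and is read there in reverse complement.
Acta1 (chr8:123894829-123894858, minus strand): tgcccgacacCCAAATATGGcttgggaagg
Cnn2 (chr10:79988534-79988563, plus strand): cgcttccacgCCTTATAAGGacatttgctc
Glipr2 (chr4:43957608-43957637, plus strand): gctgcctttgCCTTATAAGGcggggccggg
Acta2, distal (chr19:34255438-34255467, minus strand): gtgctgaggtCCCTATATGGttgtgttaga
Acta2, proximal (chr19:34255388-34255417, minus strand): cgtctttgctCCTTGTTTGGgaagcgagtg
T (chr17:8434177-8434206, plus strand): ctgctcggtactTCAAAGggtgtcccgccc
The matches began 73 bases upstream of the start for Acta1, 56 for Cnn2, 84 for Glipr2, 84 and 34 for Acta2, and 234 for T. They describe letters in these windows and not bound sites.

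Several genes of the streak and of its caudal and paraxial descendants were higher with 0.75 ng/ml FGF2. By the 1.5-fold rule, 1.25% of all genes with at least 10 CPM were higher and 4.13% lower. In the list for primitive streak and nascent mesoderm, 3 of the 4 members with at least 10 CPM passed the 1.5-fold rule upwards and none downwards, with a median log2 ratio of 1.298. Beside T and Fgf8 this was Evx1, a homeobox gene of the posterior streak, at 11.5 and 23.6 CPM. Wnt3, the ligand that initiates the streak, was at 20.6 and 14.9 CPM and did not pass. In the list for caudal epiblast and neuromesodermal precursors, 4 of the 5 members with at least 10 CPM were higher. Of these, Cyp26a1 reached that level only at 0.75 ng/ml. Cdx2, a homeobox regulator of posterior identity, was at 109 and 188 CPM, a ratio of 1.73 (1.68 to 1.78). Nkx1-2, Cyp26a1, which degrades retinoic acid, and Sp8 had ratios of 2.05, 2.07 and 1.92. Sox2 was at 27.0 and 34.7 CPM and did not pass. Cdx1 and Cdx4 were each at 0.0352 and 0.0368 CPM and thus nearly absent.

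In the list for presomitic and somitic mesoderm, 5 of the 6 members with at least 10 CPM were higher and none lower, beside 1.25% and 4.13% of all genes. Tbx6, Dll1 and Dll3 reached that level only with FGF2, which favors counting them as higher. Tbx6, which specifies paraxial mesoderm at the expense of neural fate, was at 5.86 and 11.5 CPM, a ratio of 1.96 (1.73 to 2.23). Hes7, the oscillating repressor of the segmentation clock, was at 29.3 and 56.0 CPM, and the Notch ligand genes Dll1 and Dll3 had ratios of 2.27 and 1.85. Cited1 was at 58.7 and 84.8 CPM and did not pass. Members below 10 CPM were mixed, with Lfng at 4.01 and 2.53 CPM, Foxc1 at 6.94 and 8.54 CPM and Msgn1 at 0.334 and 0.515 CPM. The pluripotency list had 3 members above 10 CPM, none of which passed, too few to set apart from the 5.39% of all genes. Lin28a, the highest of them, was at 153 and 204 CPM.

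The Hox genes, which mark position along the body axis, were not lower in any cluster by the 1.5-fold rule. All 7 HoxB genes above 10 CPM passed upwards, from Hoxb2, with 32.5 and 50.1 CPM, to Hoxb9, with 150.1 and 242 CPM. In the HoxA cluster 2 of 7 genes passed (Hoxa3 and Hoxa7), in the HoxC cluster 1 of 5 (Hoxc4) and in the HoxD cluster 0 of 3. Of all genes with at least 10 CPM, 1.25% were higher and 4.13% lower. With so few genes, the HoxD count and the lack of lower Hox genes cannot be set apart from these shares. The summed level of the HoxB cluster was 347 and 571 CPM, and 22.1 CPM in the FGFRi library.

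Of the genes of proximal fates, some were lower and most did not pass. Among all genes with at least 10 CPM, 4.13% were lower and 1.25% higher. Prrx2, Gata2, Krt7 and Gata3 reached that level only without FGF2, and Lmo2 only at 0.75 ng/ml. Hand1 was at 85.7 and 45.9 CPM, 1.87-fold lower (1.79 to 1.95), and with Prrx2 it made 2 of the 4 members of the list for lateral plate and extraembryonic mesoderm that passed downwards. Twist1 was at 21.0 and 15.3 CPM and did not pass. In the hemato-endothelial list, Runx1 and Gata2 were lower, Gata2 at 11.9 and 4.93 CPM, whereas Lmo2, a cofactor in early blood precursors, was higher at 6.64 and 12.1 CPM. In the surface ectoderm list 5 of 16 members were lower and none higher. These were Krt18, Krt19, Krt7, Gata3 and Perp, of which the keratin gene Krt18 was at 1082 and 661 CPM. Epcam, at 332 and 328 CPM, Trp63, at 13.9 and 12.1 CPM, and Grhl2, at 14.9 and 15.1 CPM, did not pass, nor did Dlx5, at 10.3 and 15.4 CPM, and Grhl3, at 13.6 and 19.8 CPM. Of the 2 members of the list for extraembryonic ectoderm and trophoblast above 10 CPM, Cdx2 was higher and Ascl2, a trophoblast regulator, 2.14-fold lower (1.97 to 2.32). Of 8 endoderm markers none reached 10 CPM in either library, and in the neurectoderm list only Tubb3 did.

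Among signaling genes, some endogenous Fgf ligand genes were higher. All 3 ligand genes with at least 10 CPM passed upwards, beside 1.25% of all genes at this level. Of these, Fgf3 reached it only at 0.75 ng/ml, which favors counting it as higher. Fgf3 was at 3.61 and 10.1 CPM, a ratio of 2.79 (2.39 to 3.26), and Fgf17 at 14.3 and 26.3 CPM, a ratio of 1.85 (1.70 to 2.01). Fgf4 remained below the 10 CPM limit, at 0.669 and 3.65 CPM, a ratio of 5.46 (3.89 to 7.87). Also below it, Fgf13 was at 8.43 and 7.06 CPM and Fgf9 at 4.49 and 6.01 CPM. None of 8 receptor and adaptor genes passed, beside 5.39% of all genes with at least 10 CPM. So few genes cannot be set apart from that share. Fgfr1 was at 64.7 and 60.3 CPM. In the list of FGF/ERK target and feedback genes 4 of 15 members were higher and 1 lower, beside 1.25% and 4.13% of all genes. Of the higher members, Spry4 reached 10 CPM only at 0.75 ng/ml. The ERK feedback inhibitor Spry4 was at 5.88 and 13.6 CPM, the phosphatase gene Dusp4 at 24.1 and 42.9 CPM, and the transcription factor genes Etv4 and Etv5 at 15.9 and 26.5 CPM and at 18.9 and 31.5 CPM. The immediate-early gene Ier3 was lower, at 18.1 and 10.3 CPM. Dusp6 was at 24.4 and 35.9 CPM, a ratio of 1.47 (1.38 to 1.57), and did not pass. Dusp9, also a phosphatase of ERK, went the other way and was 2.17-fold lower, at 53.8 and 24.8 CPM.

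Of the Bmp ligand genes, Bmp2 was at 52.7 and 26.2 CPM and Bmp1, which encodes a protease in spite of its name, at 31.1 and 17.8 CPM. Bmp4 was at 76.2 and 58.1 CPM, a ratio of 0.76 (0.73 to 0.79), and did not pass. The extracellular antagonists diverged, with Fst at 5.81 and 18.8 CPM, a ratio of 3.23 (2.87 to 3.65), and Nog 1.72-fold lower (1.54 to 1.91). None of 7 BMP receptor and Smad genes passed, again too few to set apart from the 5.39% of all genes. Bmpr1a was at 54.5 and 55.4 CPM. Among 10 BMP target genes Msx1 was higher and Smad7 and Gata2 were lower. Of all genes with at least 10 CPM, 1.25% were higher and 4.13% lower. Gata2 reached that level only without FGF2. The classical targets Id1, at 164 and 187 CPM, Id2, at 281 and 264 CPM, and Id3, at 248 and 296 CPM, did not pass. In the Wnt pathway, Wnt5b had a ratio of 2.29 (2.11 to 2.49), Wnt4 was 1.67-fold lower (1.61 to 1.72), the target Sp5 had a ratio of 1.71 (1.62 to 1.80) and the antagonist Dkk1 was 2.32-fold lower (2.15 to 2.49). The other 3 Wnt ligand genes and 9 target and feedback genes above 10 CPM passed in neither direction. Among these was Axin2, a direct Wnt target, at 68.0 and 91.7 CPM.

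Lower genes were numerous in the lists for the contractile cytoskeleton, for annexins, S100 proteins and galectins, and for the extracellular matrix, none of which had a member past the rule upwards. For comparison, 4.13% of all genes with at least 10 CPM were lower and 1.25% higher. Of 14 contractile and SRF target genes above 10 CPM, 11 were lower and none higher, with a median log2 ratio of -0.81. Beside Acta2 and Tagln, the calponin gene Cnn1 was 4.38-fold lower (3.96 to 4.85), the myosin light chain gene Myl9 2.27-fold lower (2.05 to 2.52), and the tropomyosin gene Tpm1, at 1699 and 944 CPM, 1.80-fold lower (1.78 to 1.82). Flna, at 272 and 182 CPM, Actb, at 4853 and 3723 CPM, and Srf itself, at 14.8 and 11.9 CPM, did not pass. The actin-sequestering gene Tmsb4x was at 2200.0 and 832 CPM, 2.64-fold lower (2.62 to 2.67), and the intermediate filament gene Vim at 320.1 and 131 CPM, 2.45-fold lower (2.39 to 2.51). Of 12 genes in the list for annexins, S100 proteins and galectins, 11 were lower. Among them were Anxa1, by 3.62-fold (3.41 to 3.86), and Anxa2, by 2.54-fold (2.46 to 2.63). The count includes Ahnak and Pmp22, which were also listed there but belong to none of these families. The other member, Lgals1, was at 573 and 450.1 CPM. Of 9 genes in the list for collagens and laminins 6 were lower, a count that includes the matrix gene Sparc. Col5a1 was 2.56-fold lower (2.39 to 2.74) and Col4a2 at 54.5 and 25.7 CPM, whereas the laminin genes Lamb1 and Lamc1 did not pass. The YAP/TEAD targets Ccn1 and Ccn2 were 2.55-fold and 5.77-fold lower, and the other 4 of 6 members did not pass.

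Part of the lower genes are known to respond to the handling of cells, and their values are therefore given beside the contractile genes. Of 8 dissociation stress genes above 10 CPM, 4 were lower at 0.75 ng/ml and none higher, beside 4.13% and 1.25% of all genes at this level. Jun was at 97.3 and 43.8 CPM, Junb at 67.2 and 43.0 CPM, Jund at 124 and 74.6 CPM and Atf3 at 26.3 and 14.6 CPM. Egr1, at 31.0 and 27.0 CPM, and Ier2, at 93.1 and 102 CPM, did not pass. Whether the detachment of the cells contributed to the differences was not tested. Markers of fibroblasts were low in both libraries, with a summed level of 38.7 and 21.3 CPM over 8 genes, of which Col1a2 and Col3a1 alone exceeded 10 CPM.

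The cell-cycle inhibitor genes Cdkn2a and Cdkn2b lie next to each other on chromosome 4 (GRCm38, 4:89274471-89294653 and 4:89306299-89311039, both on the minus strand), 11645 bases apart. Cdkn2b was at 42.3 and 6.13 CPM and 6.90-fold lower (6.27 to 7.62). The other inhibitors Cdkn1a, at 117 and 112 CPM, and Cdkn1b, at 28.7 and 24.4 CPM, did not pass, and the cyclin gene Ccnd2 was higher at 175 and 267 CPM. None of 14 S phase genes and none of 14 G2/M genes passed, beside 5.39% of all genes with at least 10 CPM. The median log2 ratio was 0.24 for the former and 0.058 for the latter. Of 11 p53 targets only Perp passed, downwards. Each of these lists is too small for its count to be set apart from that share. In the IGF system the binding protein genes diverged. Igfbp5 was at 135 and 40.7 CPM and Igfbp2 at 135 and 60.0 CPM, 3.33-fold and 2.25-fold lower, against the higher Igfbp3. The growth factor gene Igf2 was 1.76-fold lower (1.72 to 1.80), and H19, its neighbor in the same imprinted region, 2.08-fold lower (1.93 to 2.24).

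A level per library does not tell whether fewer cells expressed a gene or whether each cell held fewer transcripts. Shares of cells were therefore determined after each cell had been thinned to 10000 UMIs, which left 1679 and 2706 cells, with 17 and 19 too shallow. The share of cells with a UMI of T was 15.4% (13.7% to 17.2%) without FGF2 and 33.9% (32.1% to 35.7%) at 0.75 ng/ml, a difference of 18.5 percentage points (15.9 to 20.9). A UMI of T was found in 0.842% of cells in the FGFRi library, where the level of T was also lowest, and in 2.64% and 6.92% of the Acta2/Tagln-high cells described next. T-positive cells also held more T, with a mean of 1.85 and 2.63 UMIs per positive cell. The share of Fgf8-positive cells was 14.1% and 32.4%, and that of Rspo3-positive cells 25.3% and 46.0%. The mean UMIs of Fgf8 per positive cell differed less, at 1.94 and 2.26.

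A gate of at least 5 UMIs of Acta2 and Tagln together was used for cells with high contractile gene expression. These Acta2/Tagln-high cells were 20.3% (18.4% to 22.3%) of the cells without FGF2 and 4.80% (4.03% to 5.68%) at 0.75 ng/ml, a difference of -15.5 percentage points (-17.6 to -13.5). The gate cuts through a range of values. Just below it, with 3 or 4 UMIs, lay 4.76% and 2.51% of cells, and just within it, with 5 or 6 UMIs, 3.51% and 0.998%. Far inside, with 20 UMIs or more, lay 7.33% and 1.03% of cells. Cells inside the gate were deeper, with a median of 36408 and 38178 UMIs before thinning against 28126.5 and 27354.5 outside. Doublets were not called, and when the 5% of cells with the most UMIs were left out of each library, the difference was -15.4 percentage points.

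**Figure D2:**
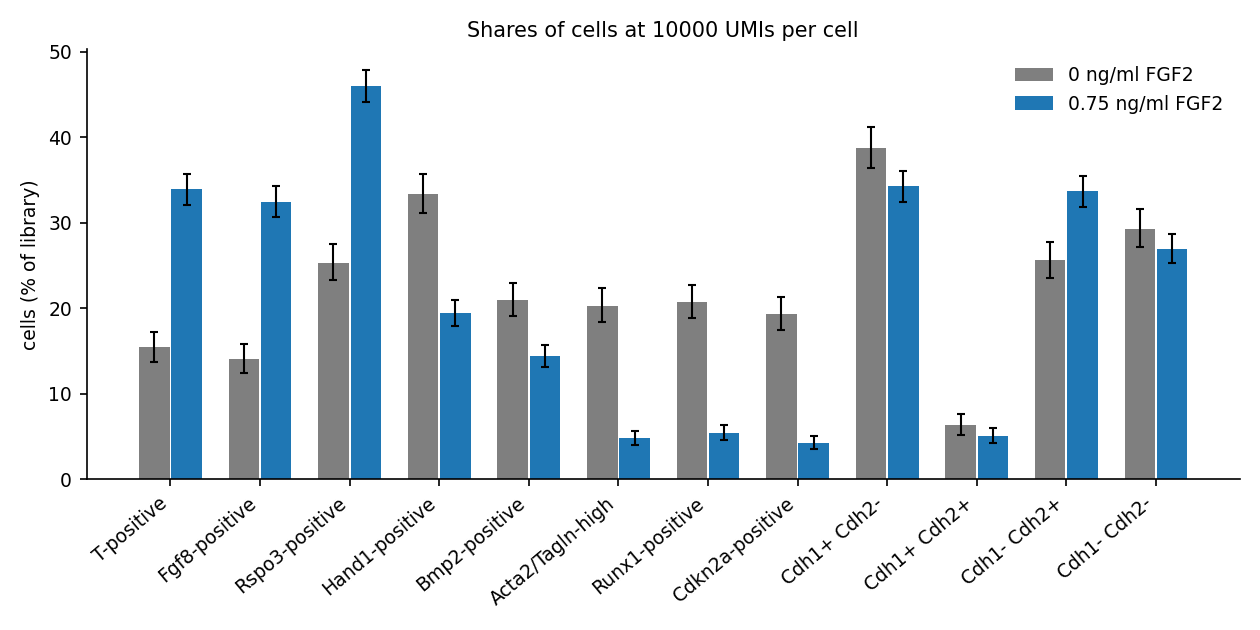
Share of cells (% of library) in each class after thinning to 10000 UMIs per cell, at 0 ng/ml (gray, 1679 cells) and 0.75 ng/ml FGF2 (blue, 2706 cells). Bars start at 0 and error bars are exact binomial 95% intervals; T-positive cells made up 15.4% and 33.9%, and Acta2/Tagln-high cells 20.3% and 4.80%.

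Keratin levels were higher inside the Acta2/Tagln gate than outside it. The median number of UMIs of Krt8 was 12 and 15.5 inside the gate and 1 outside it in both libraries. At 0 ng/ml a UMI of Krt8 was found in 89.7% of cells in the gate and 59.6% of cells outside it, and at 0.75 ng/ml in 94.6% and 55.2%. T-positive cells, with a median of 0 UMIs, had a UMI of Krt8 in 26.6% and 34.0% of cells. The median number of UMIs of Tmsb4x was 51 inside and 2 outside the gate at 0 ng/ml, and 39.5 inside and 2 outside at 0.75 ng/ml. Beside the gate genes themselves, Cnn1, Acta1 and Tnc led the genes enriched in the gate at 0 ng/ml, and Acta1, Thbs1 and Prss23 those at 0.75 ng/ml. Within the gate, 47.8% of cells had a UMI of Cdkn2a without FGF2 and 22.3% at 0.75 ng/ml. For Runx1 this was 54.5% and 33.1%. Outside the gate 12.1% and 3.38% of cells had a UMI of Cdkn2a, and 12.1% and 4.04% one of Runx1. Cells in the gate with Cdkn2a were 2.47 and 5.20 times the product of the single shares, and those with Runx1 2.63 and 6.09 times. The shares were thus lower at 0.75 ng/ml both inside and outside the gate, whereas these multiples were higher. The share of all cells that were both Cdkn2a-positive and in the gate was 9.71% without FGF2 and 1.07% at 0.75 ng/ml.

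T-positive and Acta2/Tagln-high cells were nearly separate in both libraries. In each library 9 cells were in both classes, which is 0.17 and 0.20 times the product of the single shares. T and Fgf8 were often found together. Of the T-positive cells, 48.3% had a UMI of Fgf8 without FGF2 and 60.7% at 0.75 ng/ml, and 77.6% and 84.5% had a UMI of Rspo3. Of the T-negative cells, 7.89% and 17.9% had a UMI of Fgf8, and 15.8% and 26.2% one of Rspo3. Cells with both T and Fgf8 were thus 3.42 and 1.87 times the product of the single shares. For T and Rspo3 this was 3.07 and 1.84 times, so that both values were lower at 0.75 ng/ml. T and Hand1 were found together in 3.99% of cells without FGF2 and 8.50% at 0.75 ng/ml, which is 0.78 and 1.29 times the product of the single shares. This went along with a lower share of Hand1-positive cells in all, of 33.4% and 19.4%.

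Cadherins were used to describe the state of the epithelium, since gastrulating cells exchange E-cadherin (Cdh1) for N-cadherin (Cdh2). Over all cells Cdh1 was at 93.6 and 74.6 CPM and Cdh2 at 57.2 and 71.7 CPM, and neither passed the 1.5-fold rule. Of 7 genes in the mesenchymal list with at least 10 CPM, Cdh2 among them, 2 were lower and none higher. These were Vim and Fn1, the latter at 293 and 179 CPM, and the median log2 ratio was -0.45. Of 12 epithelial genes, 2 were lower and none higher, with a median of -0.18. Among all genes at this level, 4.13% were lower. Cdh2-positive Cdh1-negative cells made up 25.6% without FGF2 and 33.7% at 0.75 ng/ml, a difference of 8.06 percentage points (5.29 to 10.8). Cdh1-positive Cdh2-negative cells made up 38.8% and 34.3%. Cells with UMIs of both were few, at 6.31% and 5.10%, and cells with neither made up 29.3% and 27.0%. Of the T-positive cells, 56.8% without FGF2 and 53.9% at 0.75 ng/ml were Cdh2-positive and Cdh1-negative. Of the Acta2/Tagln-high cells, 43.7% and 53.8% were Cdh1-positive and Cdh2-negative. In the class with both cadherins 52.8% of cells were Acta2/Tagln-high without FGF2, against 10.9% with it.

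The distribution of single genes over cells differed in form. For Tmsb4x the median was 4 and 2 UMIs, but the 90th percentile was 62.2 and 20 UMIs. For Tagln 68.0% of cells had no UMI without FGF2 and 87.6% at 0.75 ng/ml. The share of cells with 20 UMIs or more of Tagln was 5.24% and 0.887%. For Cdx2, 49.3% and 24.8% of cells had no UMI, the median was 1 and 2 UMIs and the 90th percentile 3 and 4 UMIs.

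**Figure D3:**
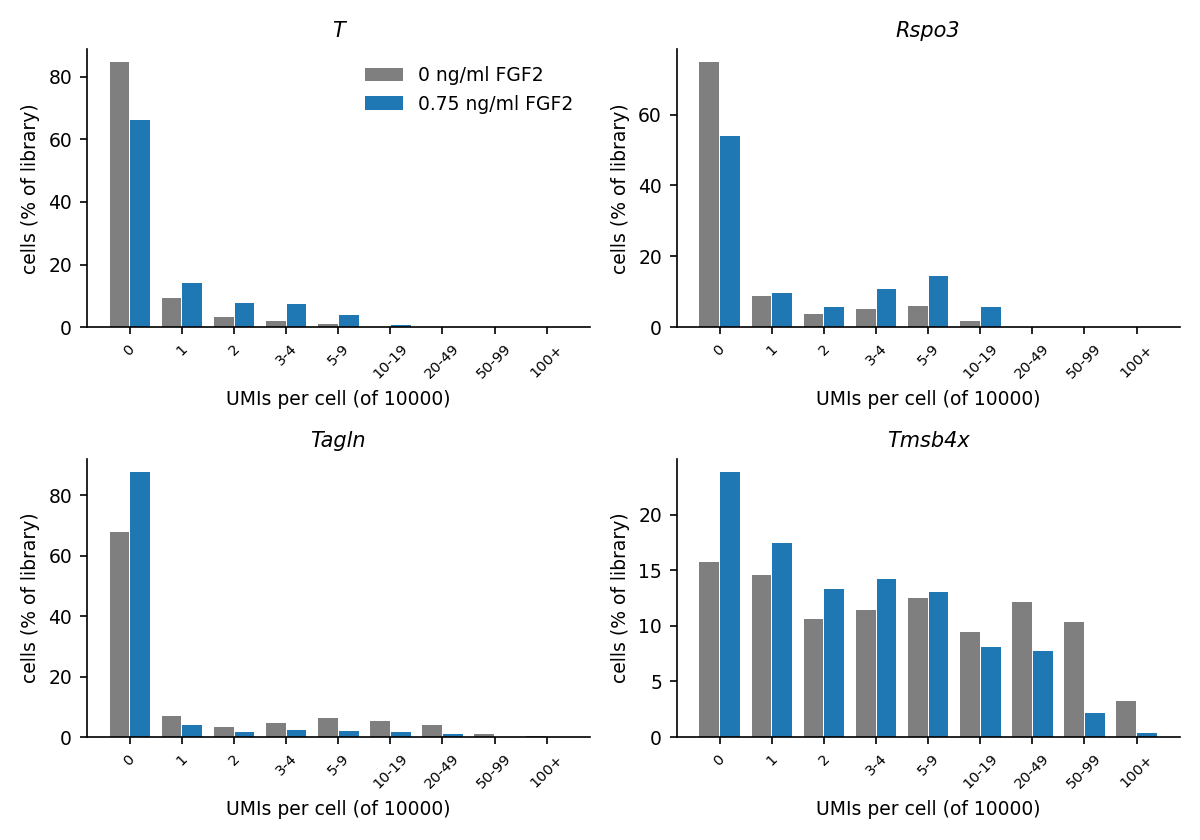
Distribution of UMIs of T, Rspo3, Tagln and Tmsb4x per cell, each cell thinned to 10000 UMIs, as the share of cells (%) in bins of UMIs at 0 ng/ml (gray) and 0.75 ng/ml FGF2 (blue). Cells with 50 to 99 UMIs of Tmsb4x made up 10.4% and 2.14% of these libraries, and cells without T 84.6% and 66.1%.

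To describe where the lower genes differed, their levels were compared within classes of cells. These genes had been chosen as lower over the same cells. In a class that holds most of their UMIs, low ratios follow from that choice. Of the UMIs of Cdkn2a, T-positive cells held 2.24% and 7.40%, and of those of Vim 8.43% and 48.7%. The classes are cut by few UMIs and are ranges rather than cell types, and their members differ between the libraries. In T-negative cells all 41 lower genes were at least 1.5-fold lower and 29 were at least 2-fold lower, with a median ratio of 0.48. In T-positive cells, 19 of 41 were at least 1.5-fold lower and 9 at least 2-fold lower, with a median ratio of 0.69. Vim, for instance, was at 346 and 102 CPM in T-negative cells but at 178 and 186 CPM in T-positive cells. Cdkn2a was at 66.4 and 12.8 CPM in T-negative cells and at 8.49 and 1.98 CPM in T-positive cells. At such low levels UMIs from free RNA cannot be told apart from expression, and Tagln in T-positive cells was likewise at 75.6 and 27.6 CPM. Inside the Acta2/Tagln gate 5 of the 39 other lower genes were at least 2-fold lower, and the median ratio was 0.74. Outside it 10 of 39 were at least 2-fold lower, with a median ratio of 0.59. Bmp2 had a ratio of 0.86 (0.80 to 0.93) outside the gate and 0.60 (0.54 to 0.67) inside, whereas Cdkn2a had 0.19 (0.17 to 0.22) outside and 0.42 (0.37 to 0.47) inside. Acta1 had a ratio of 1.14 (1.08 to 1.21) within the gate.

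Among the cadherin classes, the median ratio of the lower genes was lowest in Cdh2-positive Cdh1-negative cells. In that class 38 of the 41 genes were at least 2-fold lower, and the median ratio was 0.29. Tmsb4x was at 1651 and 359 CPM, Runx1 at 46.6 and 5.35 CPM, Anxa1 at 51.8 and 6.57 CPM and Cdkn2a at 50.04 and 4.84 CPM. In cells with UMIs of both cadherins 37 of 41 genes were at least 2-fold lower, with a median ratio of 0.36, and Acta2 was at 327 and 26.7 CPM. In Cdh1-positive Cdh2-negative cells 22 of 41 genes were at least 2-fold lower, with a median ratio of 0.49. The share of Acta2/Tagln-high cells was 15.3% and 1.54% within Cdh2-positive Cdh1-negative cells and 22.9% and 7.55% within Cdh1-positive Cdh2-negative cells, and its part in these ratios was not tested.

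**Figure D4:**
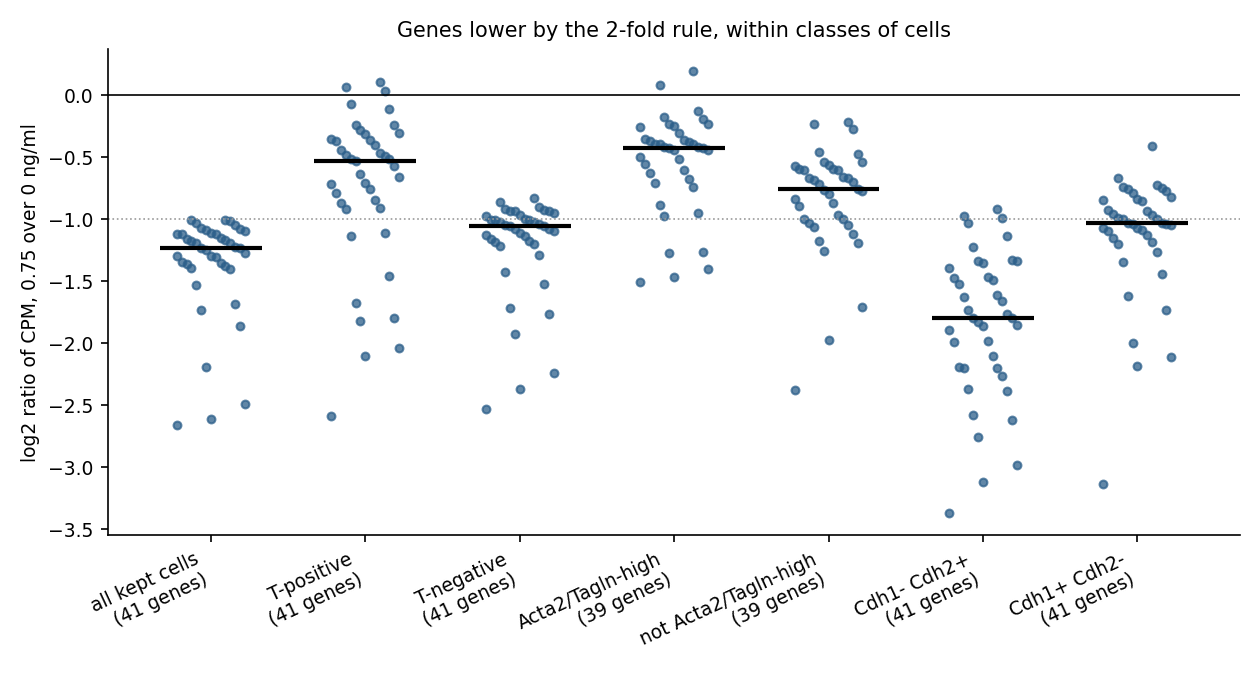
Log2 ratio of CPM, 0.75 over 0 ng/ml FGF2, of the genes lower by the 2-fold rule, over all kept cells and within classes of cells; each point is a gene, the black line the median, and the dotted line 2-fold (39 genes where the gate genes Acta2 and Tagln were left out). The median ratio was 0.29 in Cdh2-positive Cdh1-negative cells, 0.48 in T-negative and 0.69 in T-positive cells.

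For the higher genes the T-positive and T-negative classes were described in the same way. Within T-positive cells Fgf8 was at 103 and 158 CPM, a ratio of 1.53 (1.42 to 1.65), and Rspo3 at 398 and 476 CPM, a ratio of 1.20 (1.15 to 1.24). Igfbp3 was at 46.2 and 111 CPM there and Grsf1 at 102 and 248 CPM. In T-negative cells Fgf8 was at 10.5 and 28.1 CPM and Rspo3 at 38.3 and 82.5 CPM. These 2 genes thus differed more in T-negative cells. Igfbp3 was at 18.2 and 23.6 CPM in T-negative cells and Grsf1 at 69.6 and 115 CPM. The FGF/ERK targets Etv4, Etv5 and Dusp6 had ratios of 0.83, 1.04 and 1.01 in T-positive cells, with intervals of 0.73 to 0.94, 0.92 to 1.18 and 0.89 to 1.14. Dusp4 was at 47.1 and 63.5 CPM there, a ratio of 1.35 (1.21 to 1.51), and had a ratio of 1.61 in T-negative cells. For Etv4, Etv5 and Dusp6 the ratios in T-negative cells were 2.01, 1.75 and 1.58. Spry4 had ratios of 1.63 (1.30 to 2.05) and 2.29 (1.97 to 2.67) in T-positive and T-negative cells. Cdx2 was at 206 and 216 CPM in T-positive and at 91.3 and 174 CPM in T-negative cells. Hand1 was at 49.3 and 54.0 CPM in T-positive and at 92.2 and 41.8 CPM in T-negative cells. The ratios of Cdx2 and Hand1 in T-positive cells were 1.05 (0.996 to 1.11) and 1.10 (0.983 to 1.22).

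Across the other libraries, T was at 0.753 CPM in the FGFRi library and at 205 and 208 CPM at 3 and 12 ng/ml FGF2, and the share of T-positive cells was 59.8% and 64.2% at the latter. Acta2/Tagln-high cells made up 52.4% of cells in the FGFRi library, and 0.993% and 1.84% at 3 and 12 ng/ml FGF2. Vim, at 1203 CPM in the FGFRi library and 168 and 204 CPM at 3 and 12 ng/ml, was lowest at 0.75 ng/ml. Igfbp2 was at 1441 CPM in the FGFRi library, and at 23.9 and 16.1 CPM at 3 and 12 ng/ml. Bmp2 was at 92.5, 13.3 and 10.3 CPM in these libraries.

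**Figure D5:**
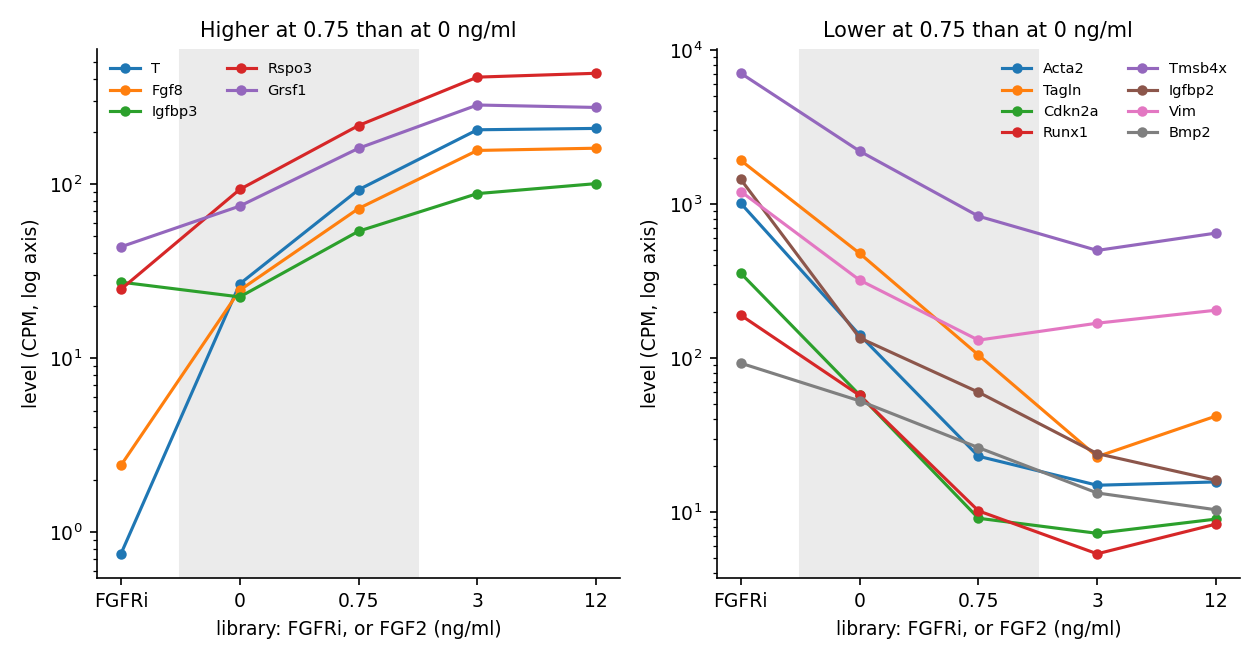
Level (CPM, log axis) of the 5 genes higher at 0.75 ng/ml (left) and of 8 of the lower genes (right) in each of the 5 libraries, ordered by treatment, 1 library per point; the compared libraries are shaded. T was at 26.7 and 92.7 CPM in the shaded libraries and Tagln at 478 and 105 CPM.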

How the data were processed

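Single-cell transcriptomes had been generated with a droplet-based 3′ kit, 1 library per condition. The authors deposited raw UMI counts per gene and barcode, without normalization and before their filters on cells. Reads had been aligned to mm10 with the GENCODE vM23 annotation. Version 5.0.1 of Cell Ranger is given in the matrix headers, and an older one in the study's methods. Reads that map to several genes are left out by this program, which lowers the counts of near-identical copies.

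Barcodes were filtered as described, UMIs were summed per library and divided by their total (CPM). Intervals are exact Poisson for levels, exact conditional for ratios without pseudocount, exact binomial for shares and Newcombe for differences of shares, at 95%. Cells were thinned with seed 1. No p-value was computed. At these depths a count of 0 allows up to 0.0528 and 0.0368 CPM (3 counts) without and with FGF2. Named genes were those past the 2-fold rule, list members past the 1.5-fold rule, the gate genes, preset signaling and marker genes, and up to 3 other members per list. Krt8, Dlx5, Grhl3, the leading gate genes Thbs1, Prss23 and Tnc, and the share of both cadherins in the gate were chosen after values were seen. The comparison, the 47 lists and the named genes were chosen with earlier results of these data known. Positions came from GENCODE vM21, which held 32158 of 32285 gene identifiers, and promoters from RefSeq. Alternatives covered the filters on cells, thinning, scaling (TMM in edgeR 4.0.16, R 4.3.3), thresholds and gates. The steps were tested on simulated data. Python 3.11.15, NumPy 2.4.6, SciPy 1.17.1, pandas 2.3.3 and Matplotlib 3.10.9 were used. Doublets were not called.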

Additional observations from a re-analysis of the deposited data

How the results depend on the processing

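No paired analysis was possible because each condition had 1 library. No barcode occurred in both libraries, so leaving out shared barcodes removed none. The counts of genes depended on the thresholds. With a minimum of 10 CPM, 25 genes were at least 2-fold higher and 115 lower, and with a minimum of 100 CPM 2 and 19. With a ratio of 1.5 at 50 CPM, 27 were higher and 105 lower. Past the 1.5-fold rule, 161 genes were higher with a minimum of 5 CPM, and with a ratio of at least 2 the counts were 25 and 115. Leaving mitochondrial and ribosomal protein genes out of the total gave 164 genes higher. For the cell filters, TMM scaling and equal weight per cell, the counts stayed within 1.5 times. The difference in T-positive cells was 14.1 percentage points after thinning to 5000 UMIs, 22.8 without thinning and 13.8 with at least 2 UMIs of T. For Acta2/Tagln-high cells it was -10.4, -19.8, -17.8 with a gate of 3 UMIs and -10.3 with a gate of 10 UMIs. With at least 2 UMIs of Cdh2 the difference for Cdh2-positive Cdh1-negative cells was 5.20 percentage points. Of 133 named genes, 126 had passed the 1.5-fold rule, so a change of direction was unlikely from the start. Of these, 0 changed direction under 9 settings of cell filter, scaling or weight. Ratios outside their main interval numbered 44 of 133 without the 5% of cells with the most UMIs. They numbered 41 with equal weight per cell, 23 with at most 5% mitochondrial UMIs and at most 8 in any other setting. Levels near 10 CPM rest on fewer UMIs and have wider intervals, and the lack of replicates limits every comparison.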

Other observations

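Further genes are given as values, most of them outside the lists above, in the order without and with FGF2. Sprr2a3, a gene of the cornified envelope family, was at 8.52 and 34.4 CPM, a ratio of 4.04 (3.67 to 4.46), and was found in 2.501% and 10.5% of cells after thinning. At 0.75 ng/ml its level in T-positive cells was 17.0 times that in T-negative cells. Psmb8, a subunit of the immunoproteasome, was at 3.19 and 11.6 CPM, a ratio of 3.64 (3.10 to 4.29), and Psmb10, also a subunit, at 35.5 and 58.9 CPM. The antigen presentation genes B2m, at 61.4 and 52.1 CPM, and H2-D1, at 39.1 and 34.0 CPM, did not pass. Among the lower genes, Rbms3, an RNA-binding protein, was 7.67-fold lower (6.36 to 9.30), Tgfbi, a secreted matrix protein, 7.11-fold lower (6.25 to 8.11), and Tnc, which encodes tenascin C, 5.74-fold lower (4.97 to 6.65). Fosl2, an AP-1 subunit, was at 15.8 and 4.70 CPM, 3.36-fold lower (2.98 to 3.79). The Eph system was mixed, with the receptor gene Epha5 at 12.8 and 23.8 CPM and the ligand gene Efna5 at 44.1 and 26.9 CPM. These genes were chosen after their values were seen.

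The 81 cytosolic ribosomal protein genes above 10 CPM had a median log2 ratio of 0.076. None passed the 1.5-fold rule, beside 5.39% of all genes at this level. Of 13 glycolysis genes above 10 CPM only Hk1 passed, at 11.6 and 7.13 CPM, and of 13 genes encoded in the mitochondrial genome none did. The glycolysis and mitochondrial groups are too small for their counts to be set apart from that share.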
